A study of Mus musculus with 12 samples.

Results

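The genes described here encode heat-shock proteins and other molecular chaperones, 82 of the 20665 protein-coding genes on the mouse autosomes (RefSeq, build GRCm38.p6). They were taken by symbol, as names that start with Hspa, Hspb, Hspd, Hspe, Hsph, Hsp90, Dnaja, Dnajb, Dnajc (without Dnajc1) or Cct followed by a number. The set was chosen by measured values of these same libraries, namely the accessible regions called within 1 kb of a gene's ends and the significance percentile of those regions. Counts of gene-end regions and their percentiles are therefore a description with no test. Peak width was not used in the choice and was tested. The symbol rule also takes in Hspbp1 and Hspbap1, whose products bind heat-shock proteins, and Hspb11, whose product is a subunit of the intraflagellar transport complex.

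The assay was ATAC-seq, where a transposase inserts sequencing adapters into accessible DNA, and the cells were CD45.2+ bone marrow of the C57BL/6 strain. There were 4 groups of 3 libraries, made from 150000 sorted cells each: Control with the genotype CD45.2(+), and leukaemic cells with CD45.2(+) BRD9-NUTM1 (BN1), CD45.2(+) MLL-AF9 (MA9) or CD45.2(+) MLL-ENL (ME). BRD9-NUTM1 joins a bromodomain subunit of a chromatin remodelling complex to a protein that recruits histone acetyltransferases, and the other fusions join the histone methyltransferase MLL to subunits of elongation complexes. The labels name no vector, promoter, clone or age, and do not say whether the 3 libraries of a group came from separate mice, so p-values measure only the spread between these samples.

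Chaperones bind unfolded proteins and help them fold, be carried across membranes or be handed on for degradation. HSP70 proteins (Hspa) work in cycles of ATP hydrolysis that J-domain cochaperones (Dnaja, Dnajb, Dnajc) start and nucleotide exchange factors end, HSP90 proteins mature kinases and receptors, small heat-shock proteins (Hspb) hold unfolded clients, and the chaperonins Hspd1 with Hspe1 (mitochondrial) and CCT (cytosolic) enclose them. Under protein stress the factor HSF1 binds heat shock elements, inverted repeats of GAA, in many of these promoters. Promoters of some endoplasmic reticulum chaperones carry an ER stress element read by ATF6 together with NF-Y.

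The promoters printed first are those of members that held a heat shock element, searched as GAANNTTC or TTCNNGAA (each pattern reads the same on both strands, and neighbouring matches may overlap). They show the element, in capitals, up to the annotated start or to a point shortly before it, 5′ to 3′ on the gene's strand, from the RefSeq promoter table of GRCm38.p6. Hspe1 (chr1:55088039-55088136, plus strand) shares its element with Hspd1, which is transcribed the other way, and here 3 matches overlap into 1 longer element. Dnaja1 lies at chr4:40722324-40722411 (plus), Hspa1b at chr17:34959275-34959362 (minus), and the peaks of all 12 libraries covered the elements of these 3 stretches.
Hspe1: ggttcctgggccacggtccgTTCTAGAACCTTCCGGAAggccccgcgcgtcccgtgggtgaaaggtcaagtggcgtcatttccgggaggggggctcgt
Dnaja1: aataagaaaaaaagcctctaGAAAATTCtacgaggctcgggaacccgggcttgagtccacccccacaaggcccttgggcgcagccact
Hspa1b: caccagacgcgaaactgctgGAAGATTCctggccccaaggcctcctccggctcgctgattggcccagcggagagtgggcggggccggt

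The same stretch, letter for letter, stands before Hspa1a at chr17:34972193-34972280 (minus). The 300-base promoter windows of Hspa1a and Hspa1b matched at 296 bases (98.7%), so reads from these near-identical copies may be split or shared between them, and their calls are uncertain. For contrast, 3 promoters follow whose element was covered by a peak in only some libraries. The element before the start of Hsph1 (chr5:149636337-149636389, minus) lay under a peak in 8 libraries and in no BN1 library, and that of Dnajb6 (chr5:29735832-29735897, plus) in 9 libraries, again in no BN1 library. The element of Dnajb4 (chr3:152193846-152193879, minus) stands at an internal start and lay under a peak in the 3 Control and 3 MA9 libraries only.
Hsph1: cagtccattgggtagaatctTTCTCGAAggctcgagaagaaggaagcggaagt
Dnajb6: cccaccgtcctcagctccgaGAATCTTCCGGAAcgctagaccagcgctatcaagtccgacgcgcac
Dnajb4: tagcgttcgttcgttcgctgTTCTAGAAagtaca

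The ER stress element was found in the promoters of 3 members, Hspa5, Hsp90b1 and Dnajc3, which all encode chaperones of the endoplasmic reticulum. The promoters of Dnajb9, Dnajb11 and Dnajc10, whose products act in the same compartment, were searched as well and held no match. Hspa5 lies at chr2:34772005-34772089 (plus), Hsp90b1 at chr10:86705473-86705676 (minus, with the element in each orientation) and Dnajc3 at chr14:118937807-118937905 (plus). Each element, in capitals, lay under a peak in all 12 libraries.
Hspa5: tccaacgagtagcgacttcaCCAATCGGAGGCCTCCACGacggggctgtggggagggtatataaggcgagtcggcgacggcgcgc
Hsp90b1: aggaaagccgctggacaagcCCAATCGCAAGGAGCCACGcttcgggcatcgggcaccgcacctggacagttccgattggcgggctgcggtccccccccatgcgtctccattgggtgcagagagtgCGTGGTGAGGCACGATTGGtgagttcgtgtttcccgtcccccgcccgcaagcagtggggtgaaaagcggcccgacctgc
Dnajc3: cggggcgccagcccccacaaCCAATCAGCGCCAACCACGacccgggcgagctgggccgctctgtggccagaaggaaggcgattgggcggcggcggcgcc

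**Figure D1:**
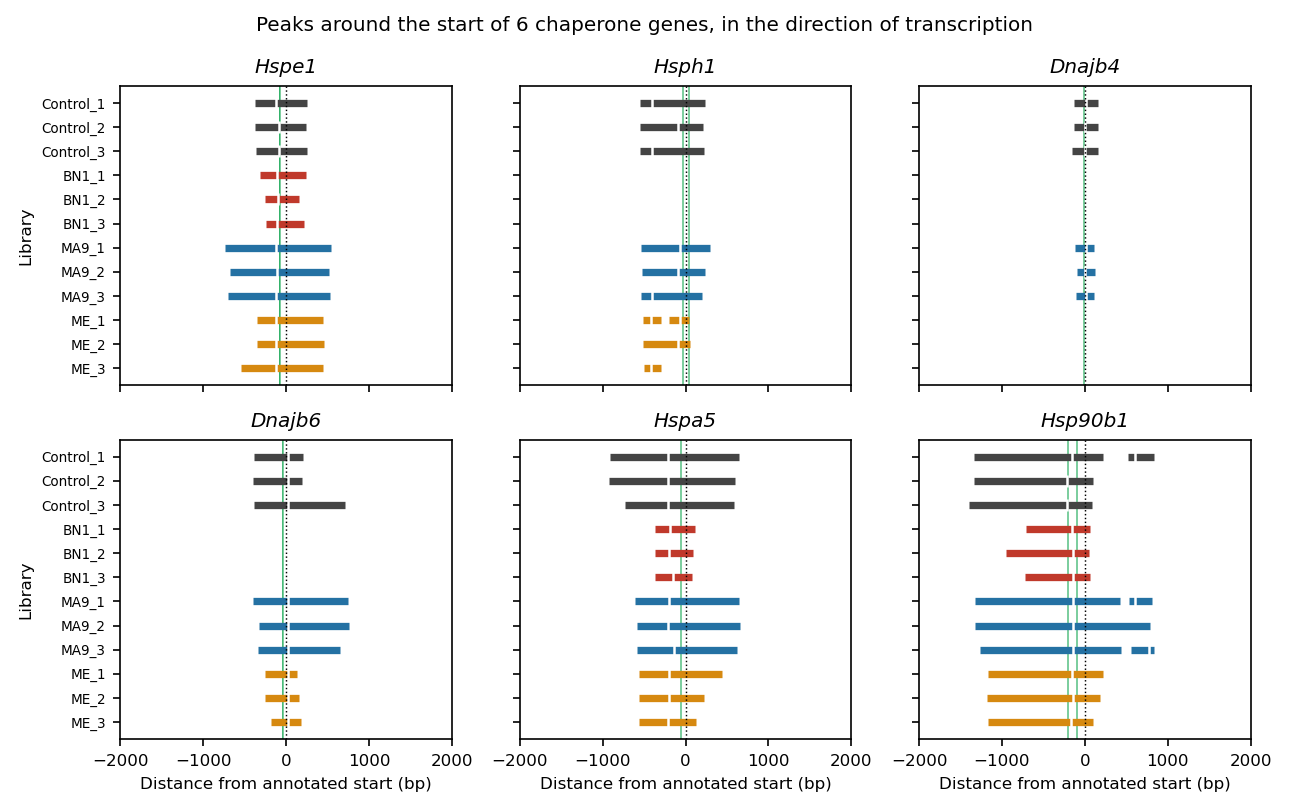
Extent of each peak (bar; the gap marks its summit) around the annotated start (dotted line, distance in bp in the direction of transcription) of 6 genes in the 12 libraries, with green lines at the heat shock element, or at the ER stress element for Hspa5 and Hsp90b1. BN1 has no bar at Hsph1, Dnajb6 and the internal start of Dnajb4, while at Hspe1, Hspa5 and Hsp90b1 all 12 libraries have a bar over the element.

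The peak lists differed in length between the groups, with 25541 to 28023 autosomal peaks in Control, 31968 to 33588 in MA9, 8546 to 9663 in ME and 3011 to 4258 in BN1. Without read numbers the depth of a library is unknown, and the absence of a peak means no call, not closed chromatin. In a bulk library a region open in fewer cells and a region less open in each cell cannot be told apart. Of 7 leukocyte marker genes chosen by name, which include Ptprc (CD45), 6 had a gene-end peak in all Control libraries and 6 in all MA9 libraries, but 2 in all ME and 1 (Spi1) in all BN1 libraries. Ptprc itself was called in every Control and MA9 library and in no BN1 or ME library. Markers of other cells were called mostly in Control: all Control libraries held 7 of 7 B cell genes, 6 of 7 erythroid genes and 7 of 7 neutrophil genes, all MA9 libraries held 1, 2 and 3 of them, and 0 of each were called in all BN1 or all ME libraries, although the neutrophil gene Camp was called in 2 ME libraries. T cell genes were called in all libraries for 1 of 6 in each group, and stroma or endothelial genes for 0 of 8 in Control, BN1 and ME and 1 in MA9. Of all genes, 43.0% were called in all Control libraries, 45.4% in MA9, 26.9% in ME and 10.1% in BN1. In BN1, 0 or 1 call among 7 markers is thus near the share of all genes. The B cell, erythroid and neutrophil calls differed between Control and each leukaemia, as did list length, and their part in the results was not tested.

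Most chaperone genes carried a gene-end peak in Control. All 3 Control libraries had one at 64 of the 82 genes (78.0%), against 43.0% of all 20665 genes. The same count was 61 (74.4%) in MA9, against 45.4% of all genes, 46 (56.1%) in ME, against 26.9%, and 28 (34.1%) in BN1, against 10.1%. The 28 genes called in BN1 were called in all 12 libraries, where the share of all genes was 10%. Called in some but not all libraries were 37 members, and 17 had no gene-end peak in any library.

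**Figure D2:**
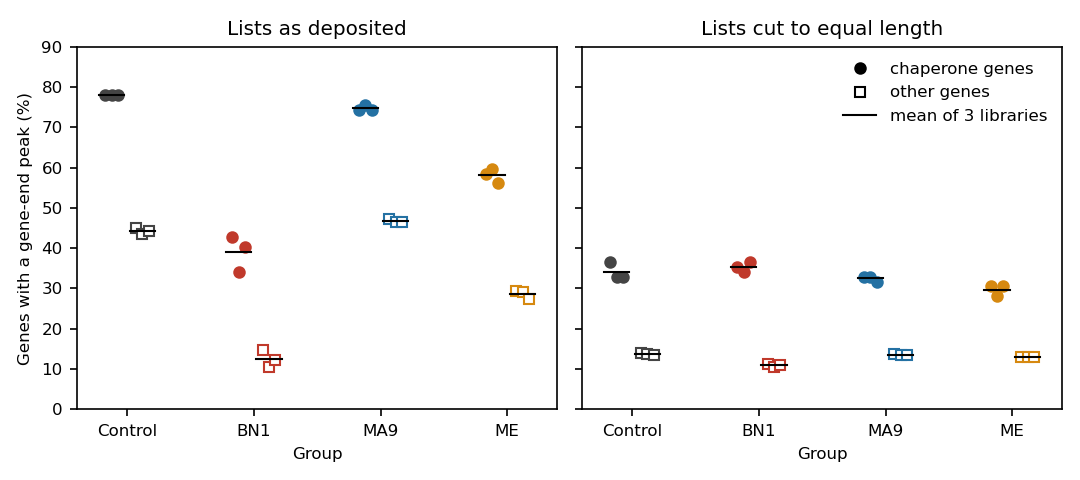
Percent of the 82 chaperone genes (filled circles) and of the other genes (open squares) with a gene-end peak in each library, with the mean of 3 libraries as a line, for the deposited lists (left) and for lists cut to the 3011 strongest peaks each (right). Chaperone genes lie at 34.1 to 42.7% in BN1 and at 78.0% in Control as deposited, and at 28.0 to 36.6% in all libraries at equal length.

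Members called in Control were kept in MA9 at close to the share of all genes (95.3%, against 93.8%). In BN1 43.8% of them were kept, against 23.4% of all genes, and in ME 71.9%, against 61.5%. Of the 64 members called in all Control libraries, 28 were also called in all BN1 libraries (23.4% of all genes called in Control were), and 29 were called in no BN1 library (64.3% of all). For ME, 46 of the 64 were also called in all 3 libraries (61.5% of all) and 15 in none (30.8% of all). For MA9, 61 were also called in all 3 libraries (93.8% of all) and 3 in none (4.24% of all), namely Dnaja4, Dnajc28 and Hspa12a. No member without a Control call was called in all libraries of a leukaemia, with 0 of 18 in each comparison. Over all 11170 genes without a Control call this share was 0.0179% in BN1, 6.41% in MA9 and 0.519% in ME. With a distance of 500 bp 1 member, Hspa4l in MA9, would be such a case.

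**Figure D3:**
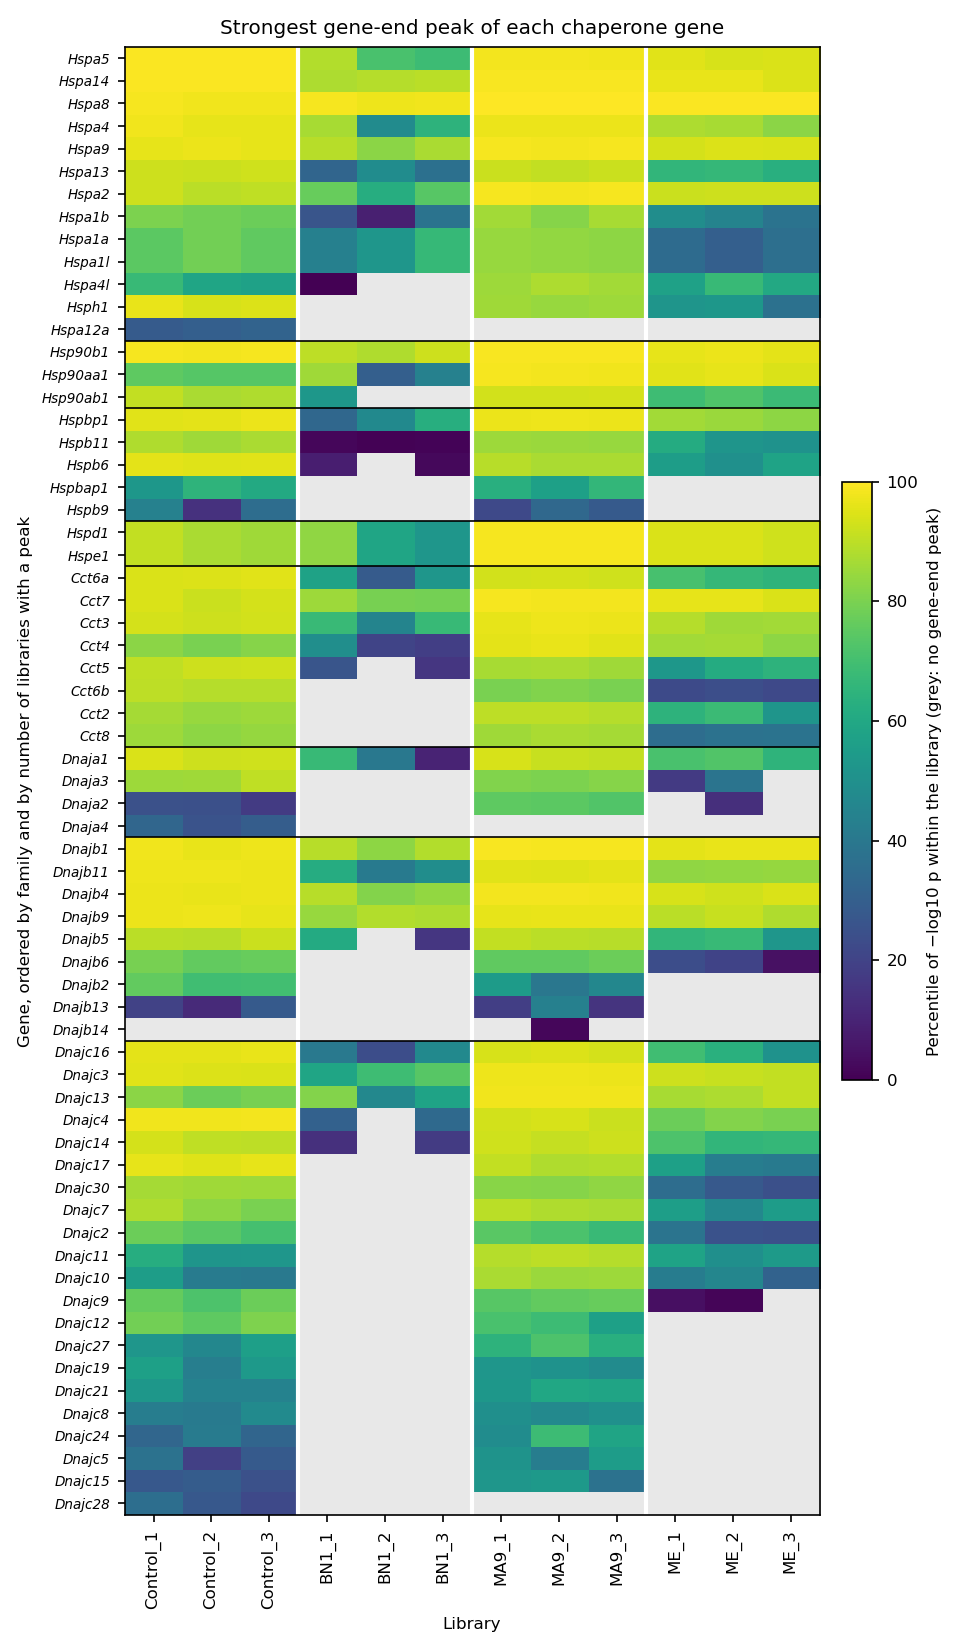
Percentile of −log10 p within each library (colour, 0 to 100) of the strongest gene-end peak at the 65 chaperone genes with a call, in rows by family, for 12 libraries in columns; grey marks no gene-end peak. The BN1 columns are grey for 29 of the 64 genes called in every Control library, where 64.3% of all such genes had no BN1 call. Hspa8 lies at 97.5 or above in every column.

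The strength of each call is given as the percentile of its −log10 p among the peaks of its own library, with 100 for the strongest. Among genes with a gene-end peak, the median percentile of members was 86.2 ± 0.956 (mean ± SD, n = 3 libraries) in Control, 88.7 ± 0.713 for MA9, 67.8 ± 2.25 for ME and 57.4 ± 4.54 for BN1. For other genes it was 78.9 ± 0.747, 81.2 ± 0.335, 63.3 ± 0.957 and 57.3 ± 1.18. The members therefore stood above other genes in Control, MA9 and ME, and within the spread of the libraries in BN1. A percentile is a rank within its own list, and lists of different length show no change in a gene, so the values of the groups are given side by side as ranks. Where MA9 values are called above or below Control values, the lists also differ in length, though in proportion least of all pairs. Of all genes called in every Control and MA9 library, 44.5% lay above in this way and 31.1% below. Such a remark is therefore no trait of the gene named.

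Among the HSP70 genes and their larger relatives, 13 of 14 were called in all Control libraries, 12 in MA9, 12 in ME and 10 in BN1. Over all genes these shares were 43.0%, 45.4%, 26.9% and 10.1%, which stand beside the counts of the other families as well. Hspa8 (chr9:40801276-40805202), the constitutive cytosolic HSP70, had the highest percentile of any member in BN1, at 98.6, 97.5 and 97.7 in the 3 libraries. In Control it stood at 98.6, 97.7 and 97.8, in ME at 99.5, 99.6 and 99.4, and in MA9 at 99.9 in each. Its call thus lay in the top few percent of every list. Hspa5 (chr2:34772090-34776529), the HSP70 of the endoplasmic reticulum known as BiP, stood at 99.5, 99.3 and 99.5 in Control and at 98.3, 98.3 and 97.9 in MA9. In ME it stood at 95.4, 93.8 and 94.2, and in BN1 at 88.6, 71.2 and 68.7, where the spread between libraries was widest. Hspa14, a ribosome-associated HSP70, stood at 87.8 to 89.6 in BN1 and between 94.6 and 99.5 elsewhere, and Hspa9, the mitochondrial HSP70, at 82.6 to 89.1 in BN1 and 93.7 to 98.5 elsewhere.

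The stress-inducible genes Hspa1a and Hspa1b ranked lower than the constitutive Hspa8 in every library. Hspa1a (chr17:34969359-34972156), whose peak is also the gene-end peak of the neighbouring Hspa1l, stood at 74.6, 78.7 and 75.4 in Control and at 84.5, 83.7 and 83.1 in MA9. In BN1 it stood at 43.7, 52.7 and 67.0, and in ME at 34.8, 30.5 and 36.5. Hspa1b (chr17:34956429-34959238) stood at 80.1, 78.8 and 77.7 in Control, 86.2, 81.7 and 87.0 in MA9, 48.9, 44.7 and 37.9 in ME, and 26.5, 8.63 and 37.9 in BN1. The MA9 values of both copies lay above all Control values. Hspa4 and Hspa2 were called in all 12 libraries, at mean percentiles of 96.9 and 90.9 in Control and 66.5 and 71.1 in BN1. Hspa13, a microsomal HSP70, stood at 39.4 ± 8.4 in BN1, 92.4 ± 0.35 in Control, 91.7 ± 0.72 in MA9 and 65.1 ± 2.0 in ME (SD, n = 3).

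Hsph1, a large HSP70 relative that exchanges nucleotides on HSP70 and is a target of HSF1, was the member with a strong Control call and no BN1 call in this family. Its percentile was 96.7, 94.0 and 94.6 in Control, 85.8, 84.6 and 85.2 in MA9, and 52.0, 52.9 and 37.2 in ME, with no peak in any BN1 library. The MA9 values lay below all Control values. Hspa4l, a relative of Hspa4, stood at 85.2 to 87.6 in MA9, 57.4 to 67.6 in Control and 57.4 to 67.5 in ME, and had in BN1 a call in 1 library that was the weakest of that list. Hspa12a, an atypical family member, was called in Control only, at 28.5 to 31.8.

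All 3 HSP90 genes were called in every Control, MA9 and ME library. Hsp90b1 (chr10:86690841-86705444), the HSP90 of the endoplasmic reticulum, stood at 98.8, 98.4 and 98.6 in Control, 98.9, 99.2 and 99.0 in MA9, 96.3, 96.9 and 96.0 in ME, and 89.9, 88.0 and 92.5 in BN1. Hsp90aa1 (chr12:110691036-110696395), the inducible cytosolic HSP90, stood at 75.3, 73.5 and 73.5 in Control, at 98.5, 98.3 and 97.9 in MA9 and 95.5, 96.2 and 94.3 in ME. Its BN1 values of 85.8, 30.2 and 44.0 spread widely. Hsp90ab1 (chr17:45567778-45573261), the constitutive cytosolic form, stood at 91.0, 87.4 and 88.0 in Control and at 69.0, 72.6 and 68.1 in ME, and was called in 1 BN1 library, at 52.8. In MA9 it stood at 93.3, 93.2 and 93.7, above all Control values.

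The mitochondrial chaperonin genes Hspd1 (chr1:55077833-55088243) and Hspe1 (chr1:55088148-55091317) lie head to head and share 1 peak, so they are 1 measurement. Its percentile was 90.9, 87.3 and 85.6 in Control, 98.5, 98.5 and 98.7 in MA9, 94.3, 94.4 and 92.7 in ME, and 83.5, 58.9 and 52.5 in BN1. The MA9 values lay above every Control value, and the BN1 libraries differed among themselves by more than those of any other group.

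Of the 9 Cct genes, 8 were called in all Control, MA9 and ME libraries and 4 in all BN1 libraries (Cct3, Cct4, Cct6a and Cct7), against 43.0%, 45.4%, 26.9% and 10.1% of all genes. Subunits of the same chaperonin thus had calls in BN1 or none. Cct7 stood at 94.2, 91.8 and 93.4 in Control and at 85.3, 79.6 and 79.2 in BN1, and Cct3 at 93.4, 92.6 and 93.1 in Control and 67.8, 45.1 and 67.5 in BN1. Cct4 stood at 82.6, 80.0 and 81.9 in Control, 95.9, 96.6 and 95.7 in MA9, 86.0, 86.6 and 82.9 in ME, and 49.5, 20.6 and 18.5 in BN1. Within BN1, Cct7 thus ranked high and Cct4 low, with Cct3 between them. Cct6a stood at 94.8 ± 0.64 in Control and 46.3 ± 15 in BN1. The subunit genes Cct2 (mean 85.5 in Control) and Cct8 (84.3) and the testis form Cct6b (89.3) had no call in BN1, and Cct5 (91.9) was called in 2 BN1 libraries. In ME, Cct6b (23.0) and Cct8 (37.0) had the lowest mean percentiles of the 8. Cct8l1 was called nowhere.

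Of the 10 Hspb symbols, 5 were called in all Control and all MA9 libraries, 3 in ME (26.9% of all genes) and 2 in BN1 (10.1% of all), and of the 5 called in Control only Hspb6 and Hspb9 encode small heat-shock proteins. Hspb6 stood at 96.0, 95.0 and 95.4 in Control, 89.3, 87.2 and 87.2 in MA9 and 55.6, 50.2 and 58.0 in ME, and in BN1 at 8.38 and 2.27 in the 2 libraries with a call. Its peak also lies at Proser3. Hspb9 was a weak call in Control (14.4 to 44.1) and MA9, at an end shared with Rab5c. Hspbp1, an HSP70 nucleotide exchange factor, was called in all 12 libraries, at 96.1 ± 0.83 in Control and 47.9 ± 15 in BN1, as was Hspb11, which in BN1 lay at 0.697 to 1.64, the bottom of the lists. Hspb1, the best-known inducible small heat-shock protein, had its nearest peak of any library 14090 bp away, and Hspb2, Hspb3, Hspb7 and Hspb8 were not called either.

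Of 4 genes of J-domain cochaperones named Dnaja, 1 was called in all 12 libraries, of 13 Dnajb genes 4, and of 27 Dnajc genes 3, where 10% of all genes were. Dnaja1, a cytosolic HSP70 partner, stood at 94.4, 92.4 and 93.0 in Control, 94.1, 91.5 and 90.6 in MA9, 71.2, 72.9 and 64.9 in ME, and 67.4, 40.0 and 10.1 in BN1. The other Dnaja genes had no BN1 call: Dnaja3, a mitochondrial cochaperone, stood at a mean of 87.2 in Control, and Dnaja2 at 22.2 in Control and 74.2 in MA9. Dnaja4 was called in Control only, at 25.5 to 32.8.

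Dnajb1, the main stress-inducible partner of HSP70, stood at 97.7, 96.8 and 97.4 in Control, 99.0, 98.8 and 98.8 in MA9, 96.0, 96.7 and 96.7 in ME, and 89.1, 83.1 and 88.6 in BN1. Dnajb4, a cytosolic relative of Dnajb1, stood at 97.0 ± 0.33 in Control and 84.8 ± 4.1 in BN1, although its peak in all 12 libraries lies at an end shared with Fubp1. Dnajb9 and Dnajb11, both cochaperones of the endoplasmic reticulum, stood at 96.9 and 97.2 in Control and at 86.9 and 50.6 in BN1. In BN1 the peak of Dnajb11 thus ranked well below that of Dnajb9 in all 3 libraries. Dnajb6, which holds off aggregation of polyglutamine proteins, stood at 79.5, 76.1 and 76.7 in Control, 75.5 to 77.4 in MA9 and 4.33 to 23.6 in ME, with no BN1 call. Dnajb2, a neuronal cochaperone, was called in Control (69.3 to 75.9) and MA9 (39.7 to 54.7) only, and Dnajb13 and the weak Dnajb14 call lay at ends shared with Ucp2 and H2az1.

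Dnajc genes were called in all Control libraries for 21 of 27 (43.0% of all genes), in MA9 for 20 (45.4%), in ME for 11 (26.9%) and in BN1 for 3 (10.1%). The 3 were Dnajc3, an endoplasmic reticulum cochaperone that inhibits eIF2α kinases, Dnajc13, which acts in endosomal sorting, and Dnajc16. Dnajc3 stood at 95.6, 94.9 and 94.5 in Control and 58.9, 69.0 and 74.1 in BN1, and Dnajc13 at 82.6, 77.5 and 79.5 in Control, 97.7, 97.8 and 97.9 in MA9, 87.1, 87.8 and 91.0 in ME, and 81.3, 46.5 and 57.9 in BN1. Of the Dnajc genes with no BN1 call, Dnajc17 (mean 95.9 in Control), Dnajc30 (86.0), Dnajc7 (83.6) and Dnajc12 (78.2) had the highest Control percentiles. Dnajc2, a ribosome-associated cochaperone, stood at 74.2 ± 3.4 in Control, 71.3 ± 3.5 in MA9 and 29.4 ± 8.0 in ME, and was not called in BN1.

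Between Control and MA9, whose lists are closest in length, 61 members were called in all 6 libraries. The percentile of 30 was higher in every MA9 library than in any Control library, where 44.5% of all such genes were, and that of 16 was lower, against 31.1% of all. The widest gaps were those of Dnaja2 (mean 22.2 in Control, 74.2 in MA9), Dnajc10, an endoplasmic reticulum reductase (45.8 and 85.9), Dnajc11 (55.6 and 89.2), Hspa4l (61.3 and 86.4), Dnajb2 (71.7 and 46.9, the lower of these in MA9) and Hsp90aa1 (74.1 and 98.2).

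Lists of equal length, the 3011 strongest peaks of each library, set the ranks of the groups side by side. All 3 libraries then held a gene-end peak at 26 members in Control (12.8% of all genes), 25 in BN1 (8.91%), 26 in MA9 (12.6%) and 22 in ME (12%). The members' counts were thus nearly level, where the deposited lists gave 64 and 28 for Control and BN1. In all BN1 and no Control library of equal length were 5 members (1.19% of all genes), Cct4, Dnajc13, Hsp90aa1 and the shared peak of Hspa1a and Hspa1l. In the reverse direction were 3 (3.29% of all), Dnajc17, Hspb6 and Hsph1. In all MA9 and no Control library were Cct4, Dnajc13 and Hsp90aa1, 3 members against 2.63% of all, and the same 3 stood in all ME and no Control library, against 2.65% of all. In all Control libraries were 5 that no MA9 list held (2.69% of all), Cct5, Dnajb5, Dnajc17, Hspb6 and Hsph1. For ME there were 6 (3.12% of all), these 5 and Hspa13. The comparisons share the Control libraries. In all 12 lists of equal length stood 15 members: Cct3, Cct7, Dnajb1, Dnajb11, Dnajb4, Dnajb9, Dnajc3, Hsp90b1, Hspa14, Hspa2, Hspa4, Hspa5, Hspa8, Hspa9 and Hspbp1.

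A gene with a strong Control call is more likely to be called in a shorter list, so the members were set beside other genes in the same bin, with Control percentiles divided into 10 bins. The set was itself chosen by calls against other genes at matched percentile, so any gap is a description with no test. In BN1 other genes of the same bins would give 18.98 of the 64 members called in all libraries, and 28 were. In single BN1 libraries 35, 28 and 33 were called, where 26.4, 19.9 and 22.8 would be given. In ME 46 were called against 42.9, and in MA9 61 against 60.1. The largest gap in BN1 lay in the fifth bin, Control percentiles 73.1 to 79.9, where 5 of 9 members were called in all BN1 libraries against 7.27% of the other genes. These 5 were Hspa1a, Hspa1l, Hspa1b, Hsp90aa1 and Dnajc13, of which Hspa1a and Hspa1l are 1 peak. Without Hspa1a, Hspa1b and Hspa1l the excess in BN1 went from 9.02 to 6.22 members. In lists of equal length it was 3.11 for BN1 and -1.12 for ME, so the ME excess changed sign there.

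**Figure D4:**
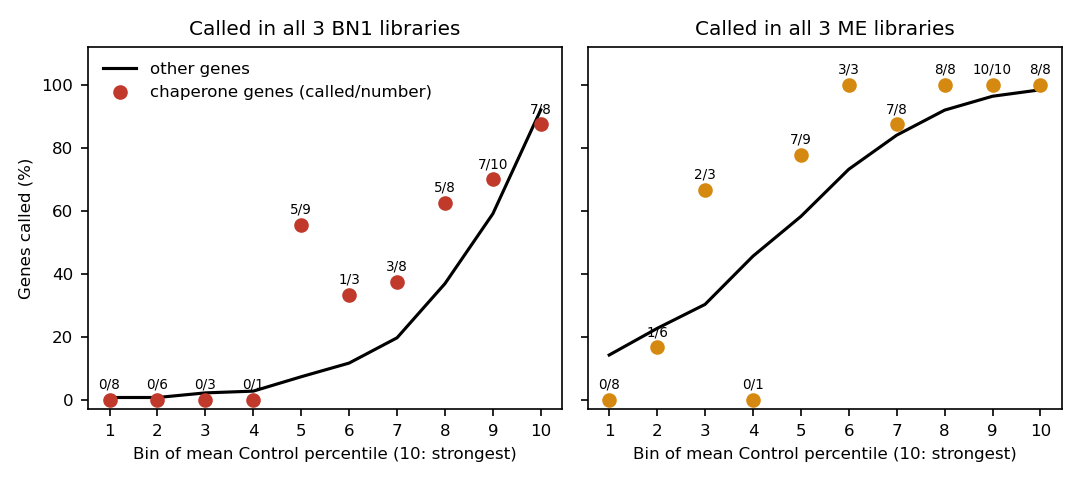
Percent of genes called in all 3 BN1 (left) or ME (right) libraries against bins of mean Control percentile, 10 being the strongest, for other genes (line) and chaperone genes (points, with the number called of the number in the bin). In the fifth bin 5 of 9 chaperone genes are called in BN1 against 7.27% of other genes, while in bins 1 to 4 no chaperone gene is called there.

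Peak width was compared at 27 member regions among the 1738 gene-end regions called in all 12 libraries, on the log2 scale, with limma across all regions and Benjamini-Hochberg adjustment at 0.05. As deposited, peaks at chaperone genes and elsewhere were mostly narrower in BN1 than in Control. The rescalings in the next paragraph remove each library's own centre, so they cannot show whether widths as a whole differ. In BN1 26 of the 27 were narrower than in Control (92.1% of all regions were) and 0 wider (0.115% of all). The median difference was -0.89 over member regions and -0.99 over all regions. In ME 15 were narrower (56.4% of all) and 4 wider (5.58% of all), with medians of -0.44 and -0.41. In MA9 13 were wider (45.9% of all) and 2 narrower (9.09% of all), with medians of 0.42 and 0.28.

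These directions are those of widths as deposited, and width moved with the library. With log2 widths centred on each library's median over the 1738 regions, which shifts all regions of a library by the same amount, 11 member regions were wider and 3 narrower in BN1, 11 and 3 in ME, and 9 and 7 in MA9. Of all 1738 regions 1032, 982 and 880 then passed, and their medians were 0.17, 0.12 and -0.03. Another rescaling, chosen after seeing the data, took the residuals of log2 width from a curve on −log10 p fitted within each library. It is called equal −log10 p here, but it also centres each library and does not match −log10 p between libraries. There 10 member regions were wider and 6 narrower in BN1, 9 and 4 in ME, and 6 and 6 in MA9. Of all regions 945, 868 and 789 passed there, with medians of 0.07, 0.07 and -0.01. The members' totals lay near those of all regions under both rescalings. All regions were not split into wider and narrower there. The members' balance therefore has no background beside it, and no result about chaperone genes is drawn from it.

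The 6 largest differences in BN1 were at Dnajb1, Hspa5, Cct3, Cct7, Dnajb9 and Hspa2, all narrower. All 6 stayed below 0 under both rescalings. They were picked by size and centring shifts all regions alike, so their sign under centring follows from the choice and adds no support. The Dnajb1 peak measured 1469, 1456 and 1495 bp in Control and 440, 424 and 426 bp in BN1, a log2 difference of -1.78 ± 0.0778 (SE) with a limma adjusted p of 1.24e-08, and passed under both rescalings. The Hspa5 peak measured 1557, 1521 and 1316 bp in Control and 483, 451 and 446 bp in BN1 (-1.67 ± 0.123, limma adjusted p = 5.72e-07). At equal −log10 p the Hspa5 difference was -0.26 with a limma adjusted p of 0.143. All 3 BN1 libraries lay below all 3 Control libraries at each of the 6, which were picked as the largest differences. Of all regions 92.1% were narrower in BN1, and how many were without overlap was not counted, so this is no trait of the 6. Centred on the library medians, the limma adjusted p was 0.0783 for Cct3, 0.503 for Dnajb9 and 0.454 for Hspa2.

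In MA9 the largest were at Dnajb4, Cct4, Dnajc13, Hspd1/Hspe1, Dnaja1 and Dnajc3, all wider. All 6 stayed above 0 under both rescalings, but under centring this too follows from picking them by size. The Dnajb4 peak, at the end shared with Fubp1, measured 566, 910 and 539 bp in Control. In MA9 it measured 1666, 1660 and 1547 bp (1.32 ± 0.195, limma adjusted p = 0.000278). In ME it measured 974, 1160 and 1466 bp (0.86 ± 0.195, limma adjusted p = 0.00332). The Cct4 peak measured 364, 376 and 351 bp in Control and 802, 796 and 800 bp in MA9 (1.14 ± 0.0603, limma adjusted p = 2.13e-07), and 343, 371 and 372 bp in ME, where the difference of -0.01 did not pass but was 0.52 centred on library medians. The shared Hspd1/Hspe1 peak measured 628, 616 and 612 bp in Control, 1276, 1188 and 1237 bp in MA9, 796, 813 and 986 bp in ME, and 552, 413 and 466 bp in BN1. It was wider in MA9 by 0.995 ± 0.11 and in ME by 0.477 ± 0.11 on the log2 scale, and narrower in BN1 (-0.39 ± 0.11, limma adjusted p = 0.007), where the sign turned under both rescalings (0.77 centred on library medians, 0.48 at equal −log10 p). At equal −log10 p its MA9 difference was 0.25 with a limma adjusted p of 0.0876. Dnajc13 did not pass at equal −log10 p in MA9 either (limma adjusted p = 0.0613). With all peaks of the region summed, the Dnaja1 difference in MA9 was 0.29 (limma adjusted p = 0.139).

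The 4 regions wider in ME were Dnajb4, Hsp90aa1, Dnaja1 and Hspd1/Hspe1. All 4 stayed above 0 under both rescalings, but centring moves ME differences upward, so their sign there was fixed in advance. The Hsp90aa1 peak measured 679, 689 and 673 bp in Control, 862, 1026 and 1053 bp in ME, 1248, 1172 and 1266 bp in MA9, and 479, 377 and 379 bp in BN1. Its ME difference was 0.52 ± 0.104 (limma adjusted p = 0.00155), and at equal −log10 p 0.23 with a limma adjusted p of 0.119. The largest in ME was the peak of Hspa1a/Hspa1l, which measured 673, 668 and 667 bp in Control and 301, 283 and 304 bp in ME (-1.18 ± 0.0465, limma adjusted p = 1.69e-08), and passed under both rescalings. In MA9 it measured 670, 671 and 670 bp, with a limma adjusted p of 0.98 against Control, and was narrower under both rescalings (-0.31 and -0.27). The peak of the near copy Hspa1b measured 585, 614 and 628 bp in Control and 567, 580 and 552 bp in ME (-0.10 ± 0.0964, limma adjusted p = 0.366), and under both rescalings it was wider in ME (0.43 and 0.69). Reads of these near-identical copies may be split or shared, so the widths of both and the contrast between them are uncertain. Hspa13 (-0.95 ± 0.0571), Hspa5 (-0.84 ± 0.123), Cct3 (-0.81 ± 0.263) and Hspa14 (-0.63 ± 0.149) were narrower in ME. The Cct3 call was lost without Control replicate 3 (limma adjusted p = 0.0705) or without ME replicate 3 (0.0552). At equal −log10 p the Hspa13, Hspa5, Cct3 and Hspa14 differences in ME did not pass.

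**Figure D5:**
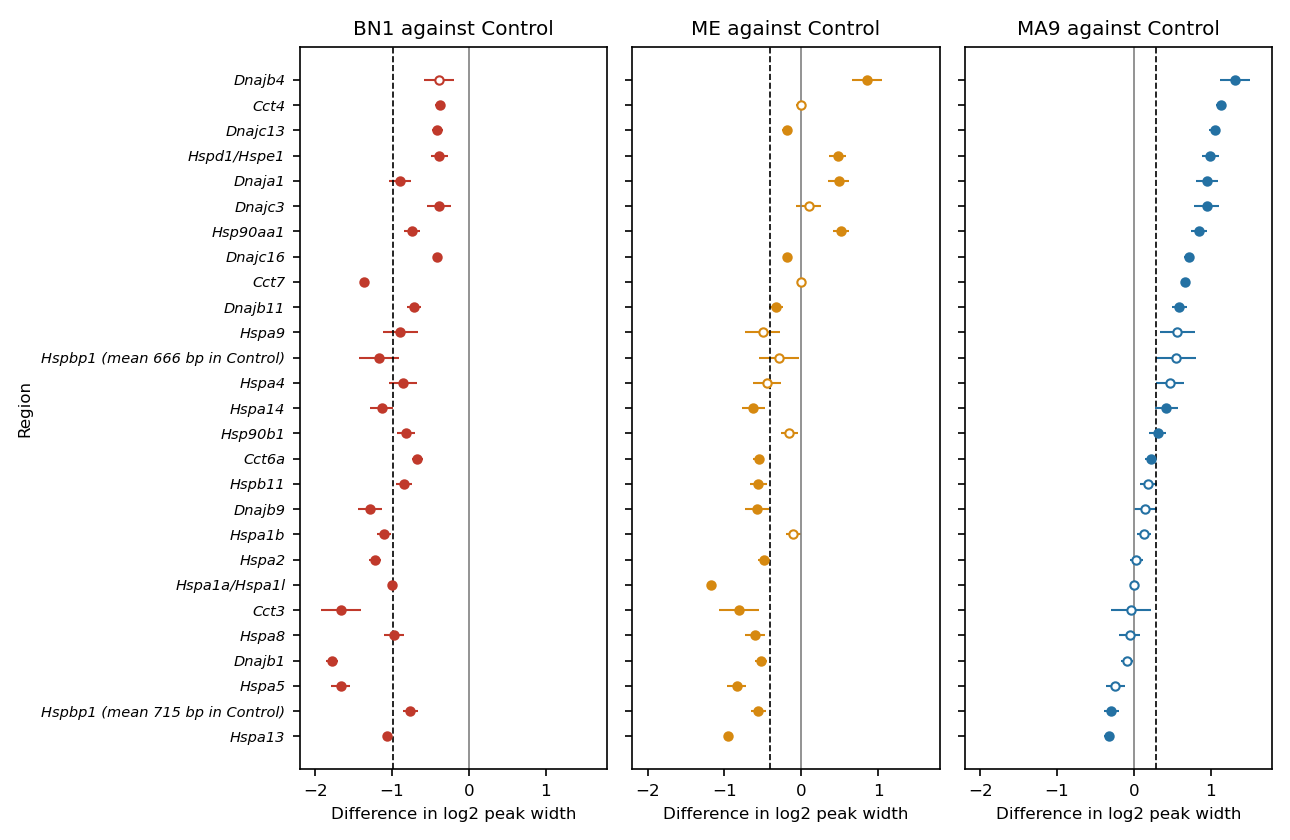
Difference in log2 peak width from Control (points, with SE as bars; filled where the limma adjusted p is under 0.05) at 27 regions of chaperone genes in BN1, ME and MA9, with the dashed line at the median of all 1738 regions. In widths as deposited, before any rescaling, 26 regions are narrower in BN1, in ME 15 are narrower and 4 wider, and in MA9 13 are wider and 2 narrower.

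Where starts are annotated, most gene-end peaks lay near one, which the limit of 1 kb from a gene end in part imposes. Members without an annotated start were not assessed, and in a short gene a peak at the other end also counts. Of the 65 members with a call, 54 have annotated starts in the table, and at 52 of these every called library had its peak within 1 kb of a start. The exceptions were Dnajb13 and Dnajc15. Among the 23 members of the table that were called in all 12 libraries, the median summit lay before the start at 22, at a median of -119 bp and between -452 and 110 bp. Many starts are shared with a neighbour: 27 members had a peak that also lay at another gene, such as Cct7 with Pradc1 and Hspa14 with Cdnf. In the first Control library this held for 25 of 64 members (39.1%) and 30.3% of other genes with a peak.

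Promoter letters were searched in both orientations, and a match is a description, not a site. Of the 82 members, 67 are in the promoter table, among 16457 genes. A heat shock element stood in the promoters of 20 (29.9%), against 15.8% of all genes. The 3-unit element is 3 alternating repeats of GAA and TTC and thus 2 overlapping matches. It stood in 4 (5.97%, against 0.62%): Hspd1, Hspe1, Hsph1 and Dnajb6. Hspd1 and Hspe1 share the same DNA there, so the 4 genes do not hold 4 separate elements. The ER stress element stood in 3 (4.48%, against 0.158%). CCAAT stood in 43.3% of members and 42.3% of all, GGGCGG in 73.1% and 50.3%, CCGGAAG in 19.4% and 13.3%, the NRF1-type motif in 19.4% and 7.39%, TGACGTCA in 1.49% and 2.63%, and TATAAA in 5.97% and 15.0%. The CCAAT count includes the end of each ER stress element. Among the 23 members of the table called in all 12 libraries, CCAAT stood in 69.6% (55.2% of all genes called in all 12). GGGCGG stood in 91.3% of these members (80.1%) and a heat shock element in 30.4% (13.6%). Those with the element include the Hspd1/Hspe1 pair and the near-identical copies Hspa1a and Hspa1b. They also include Dnajb4, whose element lay under a peak in Control and MA9 libraries only. Among the 13 members of the table called nowhere, a heat shock element stood in 5 (38.5%), GGGCGG in 7 (53.8%) and CCAAT in 3 (23.1%). Promoters with no peak in any library thus also held the element.

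The 17 members called nowhere were Cct8l1, Dnajb12, Dnajb3, Dnajb7, Dnajb8, Dnajc18, Dnajc22, Dnajc25, Dnajc5b, Dnajc5g, Dnajc6, Hspa12b, Hspb1, Hspb2, Hspb3, Hspb7 and Hspb8. Dnajc25 had a peak within 1 kb of an annotated start inside its span in the 3 Control and 3 MA9 libraries. At the distance limit, Dnajc5 was the last member inside, with its nearest peak 891 bp from an end, and Hspb7 (1053 bp) and Dnajb3 (1205 bp) were the first outside. Inside gene bodies, more than 1 kb from the ends, the members held 18 to 22 peaks per Control library, 24 to 29 in MA9, 2 to 3 in ME and 0 to 1 in BN1. Per 100 kb of gene body these were 0.975 to 1.19 peaks in Control, where other genes had 1.01 to 1.13, and 1.30 to 1.57 in MA9, where other genes had 1.27 to 1.36. In ME they were 0.108 to 0.162, below the 0.210 to 0.244 of other genes, and in BN1 at most 0.0541, below the 0.0676 to 0.0961 of other genes, from at most 3 member peaks per library.

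Partners of these chaperones that the symbol rule leaves out were counted from lists chosen by name. Of 59 such genes, 50 were called in all Control libraries, 51 in MA9, 43 in ME and 19 in BN1, and 28 in no BN1 library. The shares over all genes, to be set beside these and the next counts, were 43.0%, 45.4%, 26.9% and 10.1%. The regulators and HSP70 partners (14 of 17 called in Control, 7 in BN1) included Hsf1, the heat shock factor, which stood at a mean of 38.2 in BN1, 91.8 in Control, 94.8 in MA9 and 86.2 in ME. Stip1, which links HSP70 to HSP90, stood at 99.9 in Control and 93.2 in BN1. Of 10 HSP90 cochaperones 10 were called in Control and in MA9, 8 in ME, and 1, Unc45a, in BN1, close to the share of all genes there. Ahsa1, which activates the HSP90 ATPase, stood at 94.2 in Control and 21.0 in ME with no BN1 call, and Ptges3 (p23) at 53.0 in Control, 94.7 in MA9 and 81.5 in ME. In the endoplasmic reticulum list 14 of 18 were called in Control and 7 in BN1, Calr (calreticulin) at 99.8 and 95.6. In the list of CCT and prefoldin partners 6 of 8 were called in Control and 2 in BN1, Tcp1, the CCT subunit whose symbol falls outside the rule, at 98.8 and 66.1. In the mitochondrial list 6 of 6 were called in Control and 2 in BN1.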

How the data were processed

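The data were 12 deposited peak lists in narrowPeak layout, 1 per library. Per the submitters' processing notes, Genrich, deepTools 3.5.1, Bowtie2 2.5.4 and Picard 3.2.0 were used on GRCm38 (mm10); options and read numbers are not given in the sources used here. The deposited −log10 p ranked peaks within a library, as the share of peaks at or below it; the deposited signal, never below 200.0, served as an alternative ranking, and the deposited score was not used. Depth is unknown, so no interval for counting error is given.

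Autosomal peaks (chromosomes 1 to 19) within 1 kb of either end of a RefSeq GRCm38.p6 gene span counted as gene-end peaks, since the gene table gives no strand. All 82 members matched the gene table, and 67 the RefSeq promoter table; Cct4, Dnajc11, Dnajc12, Dnajc18, Dnajc2, Dnajc22, Dnajc30, Dnajc5, Dnajc5b, Hsp90aa1, Hsp90ab1, Hspa13, Hspa8, Hspa9 and Hspb2 did not. Equal-length lists kept the 3011 strongest peaks, the length of the shortest list. The counts given by other genes used 10 bins of mean Control percentile. Autosomal peaks of all libraries overlapping by 1 bp or more were merged, and merged regions within 1 kb of a gene end were kept. The strongest peak of a region in a library need not itself lie within 1 kb of a gene end. Its log2 width was fitted for 4 groups in limma 3.58.1 (R 4.3.3, empirical Bayes with trend), adjusted over all 1738 regions. The fit was tested on simulated data. Python 3.11.15 and pandas 2.3.3 did the rest.

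Members and lists were chosen with earlier results of these data known. Genes were named by family (those called in all 12 libraries, the strongest Control calls absent from BN1, the classical members), by size of width difference up to 6 per comparison, and by size of percentile gap between Control and MA9; other pairs of lists differ too much in length for that. Names outside these rules (shared neighbours, partners, Hspb6, Dnaja2 to Dnaja4, Dnajb2, Dnajb14, Dnajc5 and the HSP90 widths) were picked after their values were seen. Same-numbered libraries were not paired (closing section). Alternatives were other distances, significance limits, rankings, bins, region rules and leaving out each library, and, chosen after seeing the data, annotated starts, shared peaks counted once, Hspa1 genes left out and width at equal −log10 p. The last took residuals of log2 width from a cubic fit on log2 of −log10 p within each library.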

Additional observations from a re-analysis of the deposited data

How the results depend on the processing

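Counts of calls and width totals kept their side and stayed within 1.5 times when a library was left out: 28 to 33 members in BN1, 46 to 48 in ME, 61 in MA9 and 64 in Control, with 25 to 30, 17 to 19 and 12 to 14 width calls in BN1, ME and MA9 when the library was of Control or of that group, and up to 25 in ME and 19 in MA9 without BN1 replicate 2, which adds regions. The lists of equal length hold fewer peaks by construction: calls in all libraries went to 26 in Control, 26 in MA9 and 22 in ME, those shared with Control to 18 (BN1), 20 (MA9) and 17 (ME), those in Control and no library of the leukaemia to 3 (BN1), 5 (MA9) and 6 (ME), and those absent from Control to 5. A distance of 500 bp gave 1 of the last kind. The called minus predicted count was 9.02 in BN1, with 8.497 to 11.2 when a library was left out (11.2 without BN1 replicate 2); it was 7.69 at 2 kb, 3.11 at equal length, 10.4 with 2 of 3 libraries, 6.25 ranked by signal, 6.43 at annotated starts, 7.28 with shared peaks counted once and 6.22 without the Hspa1 genes. In ME it was 3.13 (2.85 to 3.31), and 1.73 at 500 bp, 1.70 at 2 kb, -1.12 at equal length, 2.42 with 5 bins, 1.81 by signal, 1.29 at starts and 1.87 without the Hspa1 genes. In MA9 it was 0.906 (0.589 without MA9 replicate 2, up to 1.17), and -0.27 at 500 bp, 0.461 with 2 of 3 libraries, 0.476 by signal and -0.62 at starts. The median percentile by signal was 68.0 in BN1, 91.3 in MA9 and 74.0 in ME, and 89.6 in MA9 without the Hspa1 genes. Width calls numbered 14 in BN1 and 14 in ME centred on library medians over the tested regions and 16 and 13 at equal −log10 p, mostly wider. Both settings remove each library's centre, so wider there is relative to that centre. Over regions of the 6 libraries compared, which are more, width calls numbered 33 in ME and 32 in MA9. For the others the cause was not tested. With the replicate number as a block in limma (replicate block), width calls were 26 in BN1, 18 in ME and 15 in MA9, against 26, 19 and 15 without it. Same-numbered libraries deviated from their group means in log2 width with correlations of -0.0402 to 0.0428 over 18 pairs, like other pairs (-0.0553 to 0.0431). Region widths thus showed no pairing by number. A shift common to all regions of a library, as in depth or list length, could not show in this measure.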
